A study of Homo sapiens with 12 samples.

Results

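The 40 genes described here encode the vacuolar proton pump and a selection of lysosomal proteins, out of 13588 genes listed in the RNA-seq tables of this study. They were chosen by name: 18 pump genes (6 of the membrane sector V0, 10 of the cytosolic sector V1 and 2 accessory subunits), 15 lysosomal hydrolases, 5 lysosomal membrane proteins, the hydrolase activator precursor PSAP and the transcription factor TFEB. The choice was made with earlier results of both comparisons known, among them the lower level of ATP6V0C, so the changes with TGFbeta1 are given for each gene as a description and the number of calls supports nothing.

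The samples were 12 libraries of MCF-12A, a non-tumour human breast cell line of epithelial origin that is kept in culture as an established line. Of these, 6 came from cells given TGFbeta1, a secreted cytokine that can drive epithelial cells towards a mesenchymal state, and 6 from control cells given vehicle. They form 2 separately normalised sets, replicates 1 to 3 of each group (the first set) and replicates 4 to 6 (the second set), and each comparison was made within a set. The labels used here give neither the dose nor the time of treatment, nor whether replicates were separate cultures, so a p-value reflects only how far these libraries vary among themselves, and that variation may be technical.

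The vacuolar ATPase is a rotary proton pump. Its V1 sector hydrolyses ATP and turns a ring of c subunits in the V0 sector, which carries protons into lysosomes, endosomes and the Golgi. The acid it makes activates the lysosomal hydrolases, among them the cathepsins, which break down proteins delivered by endocytosis and autophagy. TFEB and its relatives MITF and TFE3 bind E-box motifs with the core CACGTG near the start of many pump and lysosomal genes.

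Levels are FPKM, the fragments of a transcript divided by its length and by the total mapped in that library, summed over the listed transcripts of a gene. Log2 changes are TGFbeta1 minus control on the log2(FPKM + 1) scale, where low genes appear to change less than they do. A gene was called when limma, fitted over all genes of the set with a mean FPKM of at least 1, gave a Benjamini-Hochberg adjusted p under 0.05. The FPKM of a library added up to 291801.6 to 318269.5 (first set) or 338968.0 to 358432.6 (second set). No counts were used, so the depth behind each value is unknown. In bulk RNA, fewer cells of a type and less RNA per cell cannot be told apart.

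The 2 sets differed in their response. SMAD7, the inhibitory SMAD induced by the TGFbeta pathway, rose in the first set from 1.22 ± 0.189 to 4.35 ± 0.588 FPKM (SD, n = 3; limma adjusted p = 0.00199). TGFBI rose by 2.23 and ITGB6, an integrin subunit, by 3.70 on the log2 scale (limma adjusted p = 0.000506 and 6.74e-05). None of the 3 was called in the second set, with log2 changes of -0.16, -1.42 and 0.02 (limma adjusted p = 0.653, 0.288 and 0.985), and TGFBI was lower in all 3 libraries labelled TGFbeta1. The difference between the sets was called for each (limma adjusted p = 0.000241, 0.000404 and 1.38e-05). The treated libraries of the second set are therefore named below by their label. Of all genes tested, 20.9% were called in the first set (9.00% higher and 11.9% lower, 941 and 1245 of 10454) and 0.321% in the second (0.170% higher and 0.151% lower, 18 and 16 of 10579). Rescaling every library to an equal sum turned the first set's split into 1164 higher and 855 lower.

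Promoter sequence was examined because TFEB and its relatives bind CACGTG near the start of many pump and lysosomal genes. Promoters from RefSeq on GRCh38.p14 matched 30 of the 40 genes. ASAH1, ATP6V0E1, ATP6V1A, ATP6V1B2, ATP6V1C1, ATP6V1H, CTSB, HEXA, LAMP2 and PSAP had no match. In the 250 bases before the start, CACGTG, which reads the same on both strands, was present in 10 of the 30 (33.3%) and in 6.49% of 27305 promoters. The longer palindrome TCACGTGA, every copy of which also contains CACGTG, was present in 6 of the 30 (20.0%) and in 0.89% of all promoters. The genes with the core motif were the pump subunits ATP6V0B, ATP6V0D1 and ATP6V1G1, the membrane proteins LAMP1, CD63 and MCOLN1, and the hydrolases CTSA, CTSD, GAA and NEU1. LAMP1 held 5 copies, 192, 176, 159, 142 and 28 bases before the start, and GAA, MCOLN1, CTSA and ATP6V0B held 2 each. The sequences below come from the 6 promoters that hold TCACGTGA, shown for the number and spacing of their copies, with CACGTG in capitals, 5′ to 3′ on the strand of the gene.
LAMP1: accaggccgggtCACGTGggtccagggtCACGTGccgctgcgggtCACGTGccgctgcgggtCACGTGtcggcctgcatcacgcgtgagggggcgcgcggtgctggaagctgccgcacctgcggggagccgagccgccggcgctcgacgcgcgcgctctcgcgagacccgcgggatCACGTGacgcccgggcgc
GAA: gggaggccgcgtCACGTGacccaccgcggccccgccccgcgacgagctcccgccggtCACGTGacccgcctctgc
MCOLN1: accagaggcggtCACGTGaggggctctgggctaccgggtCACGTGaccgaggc
CTSA: tgtCACGTGgcgccggagttCACGTGact
ATP6V0D1: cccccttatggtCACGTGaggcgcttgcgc
ATP6V1G1: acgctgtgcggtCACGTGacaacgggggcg
On GRCh38.p14 these windows are chr13:113297035-113297228 (LAMP1, plus strand), chr17:80101493-80101567 (GAA, plus), chr19:7522571-7522623 (MCOLN1, plus), chr20:45891290-45891318 (CTSA, plus), chr16:67481199-67481228 (ATP6V0D1, minus) and chr9:114587699-114587728 (ATP6V1G1, plus). A match is a description of these letters and not a binding site.

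The genes with CACGTG showed small changes in both sets. Their median log2 change in the first set was 0.01, from -0.27 (ATP6V0B) to 0.30 (ATP6V1G1), and CTSA alone was called. The 20 matched genes without it had a median of 0.07, a range of -2.61 to 2.58, and 4 calls. The low end of that range was ATP6V1B1, listed at 0 in every treated library of this set. Its high end was ATP6V1F, with first-set control libraries at 1.09, 0.855 and 44.0 FPKM. Second-set medians were 0.08 with the motif (-0.35 to 0.37, none called) and 0.05 without (-1.01 to 0.25 over the 19 with values, 1 called). The 4 first-set calls without it were ATP6V0C, ATP6V1B1, CTSL and CTSZ. Beside these calls stand shares over all genes tested of 20.9% (first set) and 0.321% (second set). A difference in response between genes with and without the motif was not tested.

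Per length, PSAP was the most abundant of these transcripts in both control groups, with first-set and second-set levels of 366 ± 9.42 and 584 ± 51.8 FPKM (SD, n = 3). PSAP is cleaved into the saposins, which help hydrolases reach their lipid substrates. It was followed in the first set by the tetraspanin gene CD63 at 132 ± 12.6 and by ATP6V0C at 129 ± 4.31, which do not differ beyond their spread. CTSD, CTSZ and CTSC came next at 87.3 ± 7.13, 85.7 ± 8.89 and 85.5 ± 6.54 FPKM, again within their spread. CTSB followed PSAP in the second set at 197 ± 9.07, then CD63 at 127 ± 14.6 and the V1 subunit ATP6V1F at 109 ± 9.06, the last pair within their spread. The lowest were ATP6V1C2 in the first set, at 0.738 ± 0.116, and SMPD1 in the second, at 0.502 ± 0.403. Of the members, 40 had first-set values and 39 second-set values (ATP6V1C2 was analysed in the first set only), and 39 and 38 passed the filter on low values.

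Of the 39 members tested in the first set, 6 were called: the cathepsin genes CTSB, CTSL and CTSZ were higher and the pump genes ATP6V0C and ATP6V1B1 and the protease gene CTSA were lower. Over all genes of that set 20.9% were called. Only ATP6V0C, lower, was called among the 38 tested in the second set, where 0.321% of all genes were. The members' median log2 changes, 0.06 for the first set and 0.03 for the second, stood beside -0.05 and -0.0003 over all genes tested. The groups did not overlap for 5 members higher and 7 lower of 40 in the first set, where 43.3% of all genes tested did not overlap, and for 4 higher and 6 lower of 39 in the second, where 19.3% did not.

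**Figure D1:**
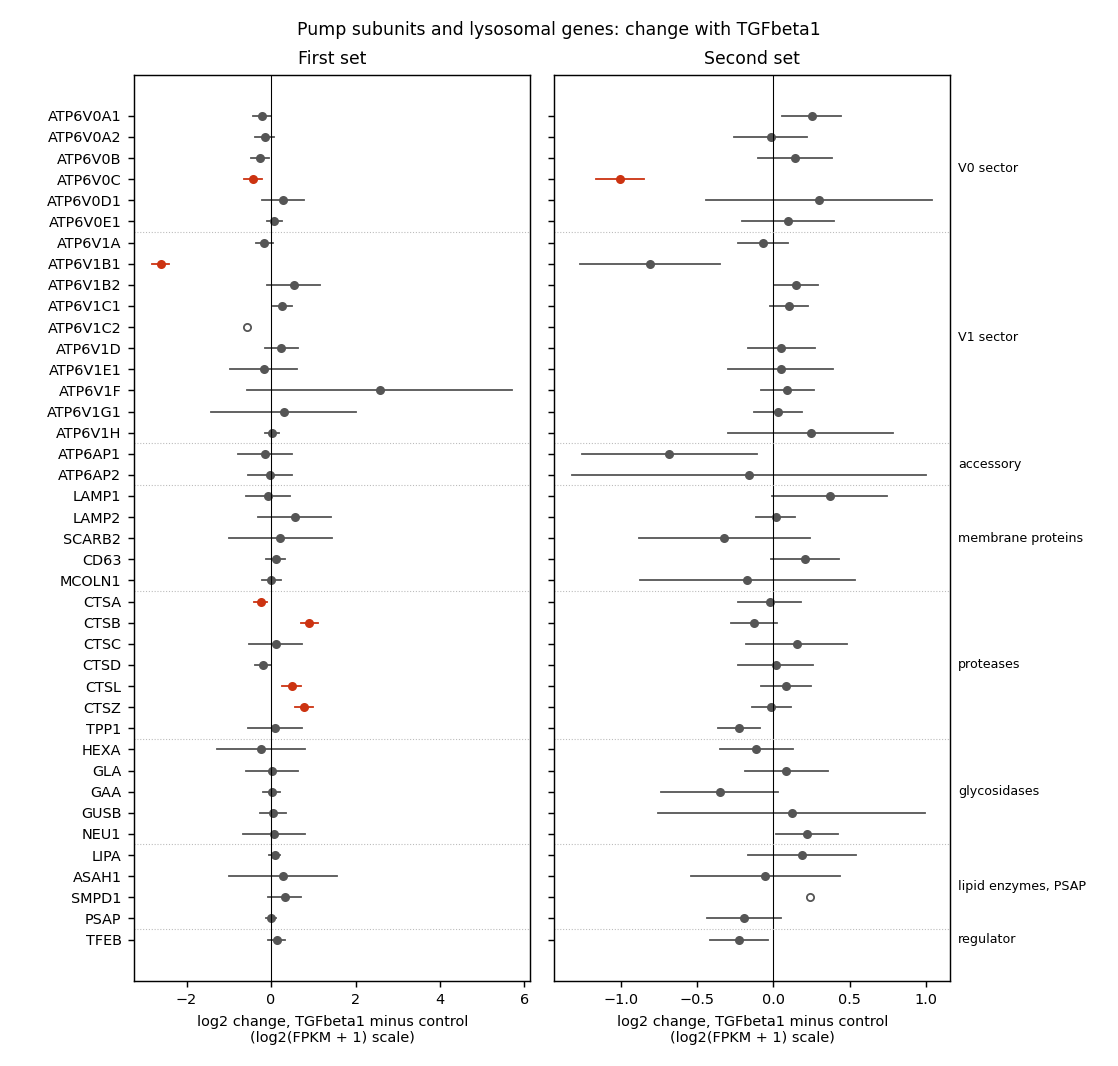
Log2 change, TGFbeta1 minus control on the log2(FPKM + 1) scale, of each member in the first set (left) and the second set (right), grouped by role, with lines for the 95% confidence interval. Red points were called, open circles were below the filter, and the horizontal ranges of the panels differ; ATP6V0C lies left of 0 in both panels, and the cathepsins CTSB, CTSZ and CTSL lie right of 0 in the left panel.

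ATP6V0C, the c subunit that forms most of the rotating ring of V0, was the one member called in both sets. On hg19 the files place it (ENSG00000185883.11_2) at chr16:2563871-2570219, plus strand. In the first set it was at 125.8, 127 and 134 FPKM in control libraries and at 93.4, 87.6 and 105.8 after TGFbeta1, so that every treated library lay below every control. This is a fall from 129 ± 4.31 to 95.6 ± 9.32 (SD, n = 3; log2 change -0.43, SE 0.08). In the second set it was at 72.2, 72.0 and 75.0 FPKM in control libraries and at 33.4, 36.2 and 38.3 in the libraries labelled TGFbeta1. The groups lay far apart, at 73.0 ± 1.65 and 35.9 ± 2.43 (log2 change -1.01, SE 0.06), a ratio of 0.492. A single transcript held 96.5% of the gene's first-set FPKM and 96.6% of its second-set FPKM, and it read 70.9, 70.2 and 72.3 against 32.2, 35.3 and 35.1 FPKM in the second. The first-set call was kept without TGFbeta1 3 and lost when any one of the other libraries was left out, at log2 changes of -0.44 to -0.37. The second-set call was lost without control 4, control 5 or control 6, at -1.01, -1.02 and -0.99, and kept when any one library labelled TGFbeta1 was left out. Of 6 fibroblast markers, DCN and COL1A1 had second-set values. DCN was at 28.6 ± 1.97 FPKM in control libraries and 12.4 ± 1.82 in those labelled TGFbeta1, and COL1A1 went the other way, from 0.439 ± 0.0214 to 0.713 ± 0.0852 (SD, n = 3). Their sum, 27.5 to 31.3 FPKM against 11.5 to 14.9, was nearly all DCN, and its part in the fall of ATP6V0C was not tested.

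The other V0 subunits changed less. ATP6V0B, the second kind of ring subunit, was at 58.9, 61.6 and 66.7 FPKM in the first-set controls and at 47.7, 51.6 and 55.8 after TGFbeta1, groups that did not overlap (log2 change -0.27, SE 0.09, not called). It was at 25.4 ± 2.49 and 28.1 ± 2.38 in the second set (log2 change 0.14). ATP6V0A1 encodes the large a1 subunit through which protons pass. It was lower in every treated library of the first set (10.4 ± 0.863 and 8.87 ± 0.315 FPKM, log2 change -0.21) and higher in every library labelled TGFbeta1 of the second (4.01 ± 0.266 and 4.96 ± 0.107, log2 change 0.25), and was called in neither. Its paralog ATP6V0A2, the a2 subunit of Golgi and endosomes, was at 3.76 ± 0.206 and 3.27 ± 0.286 in the first set and 3.08 ± 0.321 and 3.02 ± 0.192 in the second. Of ATP6V0A1 and ATP6V0A2 together, ATP6V0A2 made up 44.9, 43.0 and 42.2% in the second-set controls and 40.1, 36.7 and 36.7% in the libraries labelled TGFbeta1. In the first set these shares overlapped (26.5% ± 2.64 and 26.9% ± 1.63, SD, n = 3). They are not shares of all a subunits, since the a3 gene TCIRG1 lies outside the members. TCIRG1 was at 10.17 ± 1.025 FPKM in the first-set controls and 5.075 ± 0.533 in those of the second set. ATP6V0D1, the stalk subunit, and ATP6V0E1, a small membrane subunit, overlapped between the groups in both sets, with log2 changes of 0.28 and 0.08 in the first and 0.30 and 0.10 in the second. The 6 V0 genes had a median of -0.18 in the first set and of 0.12 in the second.

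ATP6V1B1, of the V1 sector, was lower in every treated library of both sets. It encodes the B1 isoform of the ATP-binding B subunit, the isoform of kidney, inner ear and other acid-secreting epithelia, and lies on hg19 at chr2:71163012-71192527 (ENSG00000116039.11_1, plus strand). In the first set it was at 5.34, 5.09 and 4.93 FPKM in the controls and was listed at 0 in all 3 treated libraries. The gene was called, but the size of the fitted change depends on the pseudocount, at -2.61 with 1 and -5.71 with 0.1, and a listed 0 can be a failed estimate. In the second set it was at 3.98, 3.15 and 2.97 FPKM in control libraries and at 0.934, 1.70 and 1.91 in the libraries labelled TGFbeta1. These groups did not overlap either, at 3.37 ± 0.539 and 1.51 ± 0.512 (SD, n = 3; log2 change -0.81, SE 0.19), and the gene was not called.

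The B2 isoform ATP6V1B2, found in most cells, was at 10.3, 9.53 and 19.0 FPKM in the first-set controls and at 19.0, 18.5 and 17.9 after TGFbeta1. Control 3 lay with the treated libraries, the groups overlapped, and the gene was not called (log2 change 0.54, SE 0.25). Without control 3 the log2 change was 0.83 and the gene was called. Second-set levels of ATP6V1B2 were 18.3, 18.3 and 16.7 FPKM in the controls and 20.0, 19.7 and 19.7 in the libraries labelled TGFbeta1 (log2 change 0.15, not called). B1 thus made up 34.1, 34.8 and 20.6% of the 2 B isoforms in the first-set controls, and 17.9, 14.7 and 15.0% in those of the second set. In the libraries labelled TGFbeta1 of the second set its share was 4.47, 7.93 and 8.83%.

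The C subunit joins V1 to V0 and leaves when the pump disassembles. Its ubiquitous isoform ATP6V1C1 was higher in every treated library of both sets and was called in neither. It was at 20.2 ± 1.98 and 24.3 ± 0.641 FPKM in the first (log2 change 0.26, SE 0.09). In the second it was at 26.4 ± 0.685 and 28.4 ± 0.467 (0.10, SE 0.05). With libraries rescaled to an equal sum, ATP6V1C1 was called in the first set. The tissue-restricted isoform ATP6V1C2 was at 0.627, 0.730 and 0.858 FPKM in the first-set controls and at 0.175, 0.0740 and 0.239 after TGFbeta1. All lay under the filter, so it was not tested in the main fit. With the filter dropped, ATP6V1C2 was called. Its share of both C isoforms was 3.54% ± 0.515 in control and 0.661% ± 0.337 in treated libraries (SD, n = 3), without overlap.

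ATP6V1F and ATP6V1G1, small subunits of the central rotor and the peripheral stalk, had libraries that stood apart in the first set. ATP6V1F was at 1.09, 0.855 and 44.0 FPKM in control libraries and at 32.7, 35.3 and 29.2 after TGFbeta1. Controls 1 and 2 were far below control 3, which lay above every treated library, and the gene was not called (log2 change 2.58, SE 1.27). Without control 3 the log2 change was 4.08 and the gene was called. Its second-set levels were 117, 98.9 and 111 FPKM against 113, 117 and 118, and the groups overlapped. ATP6V1G1 was at 69.6 FPKM in TGFbeta1 1 and between 11.9 and 20.7 in the other 5 libraries of the first set. All 6 libraries of the second set lay between 72.2 and 80.8 FPKM. A single transcript held at least 98.9% of ATP6V1F in each set, and ATP6V1G1 had 1 listed transcript.

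The remaining V1 genes overlapped between the groups in both sets. ATP6V1A, the catalytic A subunit, was at 34.8 ± 1.996 and 31.0 ± 2.17 FPKM in the first set and 27.9 ± 0.932 and 26.6 ± 1.74 in the second. ATP6V1D of the rotor, ATP6V1E1 of the stalk and the regulatory subunit ATP6V1H had log2 changes of 0.24, -0.17 and 0.02 in the first set and 0.05, 0.05 and 0.24 in the second. The accessory subunit ATP6AP1, needed for assembly of V0, was at 12.3, 18.8 and 20.4 FPKM in the first-set controls and at 11.03, 17.3 and 18.0 after TGFbeta1, an overlap. Its second-set levels were 4.08, 4.21 and 5.96 in the controls and 2.86, 3.41 and 1.60 in the libraries labelled TGFbeta1, without overlap (log2 change -0.69, SE 0.23, not called). Its FPKM in that set was spread over 3 transcripts whose order differed from library to library. ATP6AP2, the prorenin receptor, overlapped in both sets, with log2 changes of -0.03 and -0.16.

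**Figure D2:**
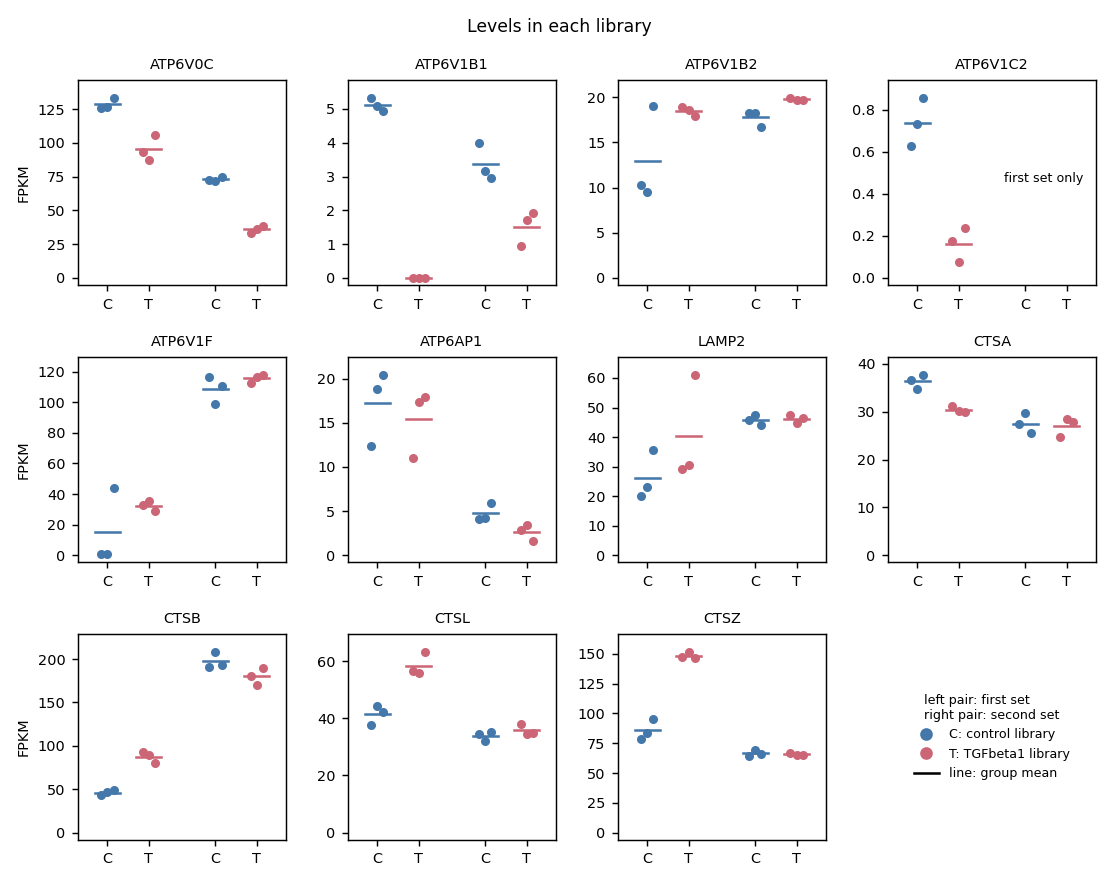
FPKM of the members that were called or had a log2 change of at least 0.5 in size in either set, with 1 point for each library, a line for the mean of each group of 3, and the first set to the left of the second in each panel. The treated points of ATP6V0C lie below the controls in both sets, those of CTSB and CTSZ lie above them in the first set only, and ATP6V1F and ATP6V1B2 have a first-set control that stands apart.

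Among the 7 protease genes, CTSB, CTSZ and CTSL, which encode cysteine cathepsins, were higher with TGFbeta1 in the first set. Other cysteine cathepsin genes did not all rise there, and CTSC overlapped. Outside the members, CTSH was lower in every treated library (9.66 ± 0.441 and 6.93 ± 1.35 FPKM, log2 change -0.44, not called). CTSV, CTSS and CTSF overlapped, and CTSK and CTSO, under the filter, were higher in every treated library. CTSB (ENSG00000164733.20_2, hg19 chr8:11700033-11725738, minus strand), an endo- and exopeptidase, was at 43.2, 46.5 and 48.7 FPKM in control libraries and at 92.8, 89.2 and 80.4 after TGFbeta1. Its mean rose from 46.1 ± 2.75 to 87.5 ± 6.41 (SD, n = 3; log2 change 0.91, SE 0.08), a ratio of 1.90, with no overlap. CTSB in the second set was at 191, 208 and 193 FPKM in control libraries and at 180.5, 171 and 189.9 in the libraries labelled TGFbeta1. There every labelled library lay just below every control (log2 change -0.13, SE 0.06, not called).

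CTSZ (ENSG00000101160.13_1, hg19 chr20:57570240-57582302, minus strand), a carboxypeptidase, was at 78.3, 83.4 and 95.6 FPKM in the first-set controls and at 147, 151 and 147 after TGFbeta1. It rose from 85.7 ± 8.89 to 148 ± 2.51 (SD, n = 3; log2 change 0.79, SE 0.09). The second-set groups overlapped, at 63.9, 69.7 and 66.1 FPKM against 66.9, 65.5 and 65.4 (log2 change -0.01, SE 0.05). CTSL (ENSG00000135047.14_1, hg19 chr9:90340434-90346307, plus strand), an endopeptidase that also processes other cathepsins, was at 37.6, 44.4 and 42.4 FPKM in the first-set controls and at 56.5, 55.7 and 63.1 after TGFbeta1. It rose from 41.5 ± 3.48 to 58.5 ± 4.07 (log2 change 0.49, SE 0.09), and this call was lost without TGFbeta1 1 (log2 change 0.51). The second set gave 33.8 ± 1.67 and 35.8 ± 1.999 FPKM, with overlap (log2 change 0.08).

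CTSA, the serine carboxypeptidase that protects beta-galactosidase and neuraminidase in the lysosome, was lower in the first set. It was at 36.7, 34.8 and 37.7 FPKM in control libraries and at 31.3, 30.1 and 29.9 after TGFbeta1 (log2 change -0.25, SE 0.06). The groups did not overlap, but the call was lost whichever of the 6 libraries was left out (log2 changes of -0.28 to -0.23) and under both other scalings (-0.20 and -0.16). CTSA overlapped in the second set, at 27.5 ± 2.04 and 27.1 ± 2.003 FPKM. CTSD, the aspartic protease of the lysosome, was lower in every treated library of the first set without a call (87.3 ± 7.13 and 76.3 ± 2.16, log2 change -0.19) and was at 51.8 ± 6.21 and 52.2 ± 3.44 in the second. CTSC, which activates serine proteases of immune cells, and TPP1, a tripeptidyl peptidase, overlapped in the first set (log2 changes of 0.11 and 0.08). TPP1 in the second set was at 13.5, 13.4 and 13.5 FPKM in control libraries and at 11.4, 11.05 and 11.7 in the libraries labelled TGFbeta1, without overlap and without a call (log2 change -0.23).

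In some libraries the FPKM of CTSB and CTSL was divided differently among their transcripts. CTSB-001 in the first set was at 33.6, 41.3 and 37.9 FPKM in control libraries and at 79.7, 77.1 and 25.3 after TGFbeta1, and in TGFbeta1 3 the transcript CTSB-002 held 38.1 FPKM against 2.23 to 8.86 in the other 5 libraries. The transcript that the second set names CTSB-232 held 156 to 191 FPKM in 5 libraries and 0.0264 in TGFbeta1 6, where CTSB-228 held 173 and at most 0.0238 elsewhere. CTSL was split between CTSL-002 (8.94, 29.6 and 24.8 in the first-set controls; 36.6, 34.9 and 51.3 with TGFbeta1) and CTSL-001 (28.0, 14.8 and 17.2; 19.8, 20.1 and 11.7). CTSZ had 1 listed transcript. The gene sums of CTSB in TGFbeta1 3 and TGFbeta1 6, 80.4 and 189.9 FPKM, lay close to those of the other treated libraries of their sets.

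**Figure D3:**
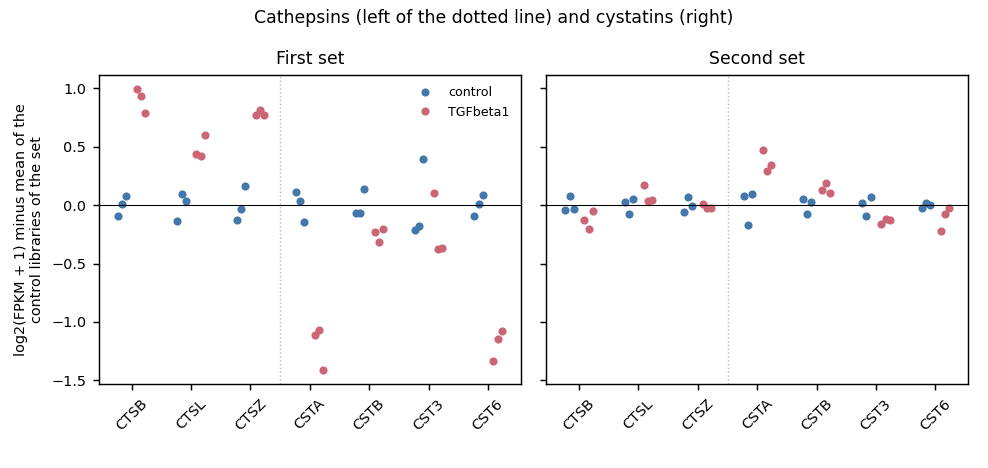
Level of the cathepsin genes CTSB, CTSL and CTSZ (left of the dotted line) and of the 4 cystatin genes (right), as log2(FPKM + 1) minus the mean of the control libraries of the same set, with 1 point for each library. In the first set CTSB, CTSZ and CTSL lie above 0 and CSTA and CST6 below 0 with TGFbeta1, and in the second set the treated points of these 5 genes lie nearer to 0.

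Glycosidases and lipid hydrolases showed no call in either set. HEXA, GLA, GAA, GUSB and NEU1, which remove terminal sugars from glycolipids, glycogen and glycoproteins, had log2 changes between -0.24 (HEXA) and 0.07 (NEU1) in the first set, and all 5 overlapped. Their second-set changes lay between -0.35 (GAA) and 0.22 (NEU1). NEU1, the sialidase, was at 6.54, 5.65 and 6.18 FPKM in those controls and at 6.84, 7.65 and 7.39 in the libraries labelled TGFbeta1, without overlap. LIPA, the acid lipase for cholesteryl esters, was at 60.1, 61.7 and 58.6 FPKM in the first-set controls and at 62.3, 63.9 and 64.8 after TGFbeta1, higher in each treated library by a small margin (log2 change 0.08). The ceramidase gene ASAH1 and the sphingomyelinase gene SMPD1 overlapped in both sets, with log2 changes of 0.28 and 0.33 in the first and -0.05 and 0.24 in the second, where SMPD1 was under the filter. PSAP was level in the first set, at 366 ± 9.42 and 367 ± 5.30 FPKM (log2 change 0.002, 95% interval -0.11 to 0.12). Its second-set levels were 550.2, 558 and 644 against 472, 489 and 574, an overlap (log2 change -0.19).

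The lysosomal membrane genes overlapped between the groups in both sets. LAMP2, a glycoprotein of the lysosomal membrane that takes part in autophagy, was at 20.1, 23.2 and 35.5 FPKM in the first-set controls and at 29.1, 30.6 and 61.0 after TGFbeta1. Replicate 3 was the highest of each group (log2 change 0.56, SE 0.35, not called), and in the second set all 6 libraries lay between 44.2 and 47.5. LAMP1 was at 59.1 ± 7.95 and 57.5 ± 16.2 FPKM in the first set and 43.5 ± 2.03 and 57.3 ± 11.5 in the second (log2 changes -0.07 and 0.37). CD63, SCARB2, the receptor that carries glucocerebrosidase to the lysosome, and the calcium channel gene MCOLN1 had log2 changes of 0.11, 0.22 and 0.01 in the first set and 0.21, -0.32 and -0.17 in the second. TFEB, the transcription factor of this gene group, was at 6.02 ± 0.408 and 6.67 ± 0.415 FPKM in the first set (log2 change 0.13, overlap). In the second it was at 5.56, 5.04 and 5.47 in the controls and at 4.21, 4.57 and 4.52 in the libraries labelled TGFbeta1, lower in each (log2 change -0.23, not called).

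Set against each other in the first set, hydrolase genes had a higher sum with TGFbeta1 and pump genes did not. The 18 pump genes summed to 522, 525 and 619 FPKM in control libraries and 563, 543 and 534 with TGFbeta1, an overlap. That overlap depends on ATP6V1F and ATP6V1G1, whose libraries stood apart. Without both, a choice made after their values were seen, the pump sum was lower in every treated library than in every control. ATP6V0C, called lower, is part of that sum. ATP6V1F was at 1.09 and 0.855 FPKM in controls 1 and 2, and ATP6V1G1 at 69.6 in TGFbeta1 1. Both genes also enter the ratio below. The 15 hydrolase genes summed to 501, 528 and 564 in the controls and 623, 671 and 662 with TGFbeta1, with every treated library above every control. The ratio of hydrolase to pump FPKM was 0.960, 1.005 and 0.911 in the controls and 1.11, 1.24 and 1.24 with TGFbeta1. Without CTSB, CTSL and CTSZ, a choice made after their values were seen, the hydrolase sum was 358 ± 18.0 FPKM in control and 358 ± 26.8 in treated libraries (SD, n = 3). Of all genes tested in this set, 4563 of 10454 had a log2 change above 0. Of 15 hydrolase genes, 12 did and their median was 0.08, and of 18 pump genes 8 did, with a median of -0.09. Both medians moved up with libraries rescaled to an equal sum, to 0.17 and -0.003.

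The sums of pump genes and of hydrolase genes both overlapped between the groups of the second set. Hydrolase genes summed to 588 ± 12.6 FPKM in the controls and 587 ± 12.4 in the libraries labelled TGFbeta1, and pump genes to 543 ± 26.8 and 532 ± 10.7 (SD, n = 3). Without ATP6V0C the pump sum was 470.2 ± 25.4 and 496 ± 10.98, so the sum of the other pump genes was not lower. The ratio of hydrolase to pump FPKM overlapped, at 1.05 to 1.12 and 1.08 to 1.14. The medians were 0.05 for pump genes, with 11 of 17 above 0, and 0.02 for hydrolase genes, with 8 of 15 above 0. Of all genes tested in this set, 5285 of 10579 were above 0.

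The change with TGFbeta1 differed between the sets for 5 of 39 members in the limma fit with an interaction of set and agent, where 13.6% of 10548 genes were called. Taken as second minus first, the difference was -1.04 for CTSB (SE 0.11), -0.80 for CTSZ (SE 0.11), -0.58 for ATP6V0C (SE 0.11), 0.46 for ATP6V0A1 (SE 0.12) and 1.80 for ATP6V1B1 (SE 0.21), the last resting on the values listed at 0. The call of ATP6V0A1 was lost without TGFbeta1 2, control 6 or TGFbeta1 5 (0.44, 0.42 and 0.45) and under equal-sum scaling (0.36). For CTSL the difference was -0.41 and not called, and it was called without control 2 (-0.46) or TGFbeta1 4 (-0.45).

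Of 106 further lysosomal and pump genes in 7 lists, 93 were tested in the first set, where 9 rose and 7 fell (17.2%, median log2 change -0.04), beside 20.9% called and a median of -0.05 over all genes. None of 89 was called by limma in the second set, and 6 had an unadjusted p under 0.05. The 3 further pump subunits tested in each set and the pump assembly factors (7 tested in the first, 6 in the second) had no call by limma in either, with medians of -0.05 and -0.08 in the first set, where 1 assembly factor had an unadjusted p under 0.05. Of 32 genes listed as other hydrolases 4 rose and 2 fell. That list also holds NPC2, GM2A and IFI30, which are not hydrolases and were not called. GLB1, the beta-galactosidase that CTSA protects, rose from 8.82 ± 0.184 to 13.2 ± 0.825 FPKM (SD, n = 3, limma adjusted p = 0.00694). The beta-mannosidase MANBA rose from 4.63 ± 0.0946 to 6.35 ± 0.364 (limma adjusted p = 0.0209). The dipeptidyl peptidase DPP7 fell from 47.5 ± 2.12 to 31.3 ± 3.78 (limma adjusted p = 0.0132). Of 23 other membrane proteins 4 rose and 1 fell. LAPTM5 rose by 1.34, OSTM1, the partner of a lysosomal chloride exchanger, by 0.80, and HGSNAT, which acetylates heparan sulfate at the lysosomal membrane, by 0.65 on the log2 scale (limma adjusted p = 0.00222, 0.0044 and 0.00433).

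Among 9 genes of sorting to the lysosome 1 was called: the sorting receptor gene SORT1 fell from 1.59 ± 0.0941 to 0.481 ± 0.0712 FPKM (limma adjusted p = 0.00341). Of 15 genes of lysosomal signalling, RRAGC, a GTPase that recruits mTORC1, rose by 0.38, and the TFEB relative MITF had a log2 change of -0.55, a fall (limma adjusted p = 0.0201 and 0.0288). Of the 4 cystatins, inhibitors of the cysteine cathepsins, 2 fell in the first set. CSTA was at 505, 479 and 423 FPKM in the first-set controls and at 216, 222 and 176 after TGFbeta1 (log2 change -1.20, limma adjusted p = 0.00199), and CST6 fell from 2.34 ± 0.217 to 0.471 ± 0.132 (adjusted p = 0.00181). CSTB and CST3 were not called, at log2 changes of -0.25 and -0.21. CSTA in the second set was at 214, 181 and 217 FPKM in control libraries and at 283, 249 and 258 in the libraries labelled TGFbeta1, without a call (log2 change 0.37), and its change differed between the sets (second minus first 1.57, limma adjusted p = 0.000126).

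Markers of other cells were compared beside these results. Macrophages are rich in cathepsins, and 4 of 7 macrophage markers had first-set values and 3 had second-set values. Their sum was 26.5 to 27.3 FPKM in the first-set controls and 19.2 to 22.5 with TGFbeta1, most of it CD68, itself a lysosomal membrane protein. PTPRC, AIF1 and CD163 gave no values, and LYZ was listed at 0 in all first-set treated libraries. The markers did not move together in the first set: CD68 and CD14 fell by 0.48 and 1.28 on the log2 scale, while CSF1R rose from 1.34 ± 0.144 to 3.70 ± 0.388 FPKM (SD, n = 3; limma adjusted p = 0.0306, 0.00123 and 0.0023). Their part in the higher CTSB, CTSZ and CTSL was not tested. The second-set sums were 20.1 to 20.5 and 15.7 to 24.1 FPKM. Of the 8 mammary epithelial markers, all with values, the sum was 2500 to 3237 FPKM in the first-set controls and 1904 to 2208 with TGFbeta1. It was 1696 to 1936 and 1796 to 1964 in the second set. Most of the first-set sum was KRT5, KRT14 and KRT17, and these markers did not all move together. KRT5, EPCAM and KRT18 were called lower there, and KRT14, KRT17 and CDH1 were lower without a call. TP63 and KRT8 had log2 changes of 0.28 and 0.82, without a call. Of 6 fibroblast markers the 2 with values summed to 1.56 to 1.84 FPKM in the first-set controls and 13.7 to 16.9 with TGFbeta1. The part of the epithelial and fibroblast markers in the first-set changes was not tested.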

How the data were processed

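RNA was measured in 12 libraries (Trizol extraction and a standard Illumina library procedure, per the labels). Reads went through cutadapt, FastQC, StringTie 1.2.3 and HISAT2 2.0.4 on build hg19 according to the submitters' processing notes, which list these names in no order. Their settings, the strand and the annotation release are not stated there. In 2 tables the authors deposited FPKM of protein-coding transcripts. In the second table the columns of group means are headed FPKM, and those means equal the mean log2(FPKM + 1) of its library columns within 4.9e-09. The first table's headers name no unit, so FPKM is inferred there. The second table also holds the authors' deposited log2 group means and log2 fold changes, linear fold changes (ratios) and, for each transcript, p-values with q-values, none of which were used as results. Low transcripts had been left out at different levels (lowest listed mean 0.025 and 0.250 FPKM), and levels were not compared across the sets. No 2 libraries held the same values.

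Gene values are sums over transcripts of a symbol, with 163 first-set symbols renamed where both sets share a transcript. The filter kept genes averaging 1 FPKM or more over the libraries fitted. They entered limma 3.58.1 (R 4.3.3) (empirical Bayes with a mean-variance trend, two-sided) on log2(FPKM + 1), with Benjamini-Hochberg adjustment over all genes tested and a call at 0.05. A further fit tested the interaction of set and agent on genes in both sets. Tables and figures used Python 3.11.15, numpy 2.4.6, pandas 2.3.3 and matplotlib 3.10.9. The procedure was tested on simulated data. Paralogous or overlapping genes can exchange reads in the authors' assignment.

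The members and gene lists were chosen with earlier results of these data known. Values in every library are given for members called, or with a log2 change of at least 0.5, in either set, and for others that the text turns on. From each further list up to 3 called genes with the smallest p in each set were named. CSTB, CST3, TCIRG1, the further cathepsin genes and the single libraries singled out were chosen after their values were seen. Alternatives tried were a 0.1 pseudocount, dropping the filter or raising it to 5 FPKM, scaling by median of ratios or to an equal sum, limma without trend, sums over transcripts listed in both sets, the omission of each library in turn, and a block for the replicate number.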

Additional observations from a re-analysis of the deposited data

Results flagged for a closer look

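For 5 members the change with TGFbeta1 differed between the sets in the limma fit with an interaction of set and agent (second minus first, log2 scale). Over all genes in that fit, 13.6% of 10548 were called. CTSB had a difference of -1.04, with treated libraries above the controls in the first set and below them in the second. CTSZ had a difference of -0.80, with treated libraries above the controls in the first set and overlapping them in the second. ATP6V0C had a difference of -0.58, with lower treated libraries in both sets. ATP6V0A1 had a difference of 0.46, with treated libraries below the controls in the first set and above them in the second. Its call was lost in 4 alternatives. ATP6V1B1 had a difference of 1.80, with lower treated libraries in both sets and values listed at 0 in those of the first.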

How the results depend on the processing

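Over ATP6V0A1 and the members given library by library under the rule for named genes, ATP6V1C2 left out, 512 combinations of result and alternative were computed. In 477 the direction and call were kept, in 26 a call was lost, in 9 one was gained, and none reversed. Many of the 512 were of results not called in the main fit, which could not lose a call. CTSA lost its first-set call in 11 alternatives and kept it in 3. ATP6V0C lost its first-set call in 5 and kept it in 9, and its second-set call in 4 and 10. CTSB and CTSZ kept their first-set calls in every alternative run, as did ATP6V1B1 wherever it was tested (it lies under a minimum of 5 FPKM). Leaving out 1 library gave 3 to 6 called members in the first set, 0 to 1 in the second and 4 to 8 for the difference between the sets (8 without control 3). The medians then ranged from -0.15 to 0.0157 for pump genes and from 0.0042 to 0.17 for hydrolases in the first set, and from 0.01 to 0.09 and from -0.0272 to 0.0368 in the second. With an equal sum per library, the first-set medians were -0.0034 for pump genes and 0.17 for hydrolases. CTSA also lost its first-set call without the mean-variance trend and with transcripts listed in both sets. The difference for CTSL was called at a minimum of 5 FPKM (-0.41), by median of ratios (-0.46) and with an equal sum (-0.52). Those for ATP6V1B2 and ATP6V1F were called without control 3 (-0.68 and -3.99). Outside the 512, the difference for TFEB was called under both other scalings and without control 3, and that for TPP1 without TGFbeta1 1. Same-numbered control and treated libraries hardly deviated together, with r of 0.007 to 0.046 across genes. Differently numbered libraries had r of -0.053 to 0.014. Values this small cannot show whether the numbers pair the samples, so pairing remains unknown. With the replicate block 4 members were called in the first set, where CTSA and CTSL lost their calls, and 0 in the second, where ATP6V0C lost its call at the same log2 change (-1.01). The share of all genes called under each omission and with the block is not given here. The counts of called members under them therefore describe the members only. Depth and counting error are unknown, which limits what the low genes can show.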
